A study of Mus musculus with 12 samples.

Results

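The zinc finger genes named Zfp700 to Zfp999 were followed across 3 groups of mouse embryonic stem cells: Id1KO_Zrf1KD, Id1KO and WT. The members were all genes whose name in the array annotation is Zfp followed by 3 digits, the first of them 7, 8 or 9, which gave 95 gene names on 144 probes, out of 36406 names on 55681 probes. Of these 95 genes, 86 were among the 22590 genes tested, and the other 9 gave signals too close to background to test. The rule used the name alone and no measured value, but it was set with earlier results of these data known.

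Each group had 4 arrays, 12 in all, from samples that the series describes as biologically independent. Id1KO_Zrf1KD cells lacked the gene Id1 and carried lentiviral short hairpins against Zrf1, the gene listed on the array as Dnajc2, under puromycin selection. Id1KO cells lacked Id1 and were not transduced, and WT cells carried neither change. All 3 groups were cultured with serum and leukaemia inhibitory factor (LIF), and the sources used here do not give the number of clones behind the knockout line. Since a control hairpin in Id1KO cells was not analysed here, a difference between Id1KO_Zrf1KD and Id1KO cells also holds any effect of transduction and selection.

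Genes called Zfp encode proteins with zinc-binding fingers, most often of the C2H2 type, in which neighbouring fingers are joined by a short conserved linker. Numbers were assigned as genes were catalogued, so genes of adjoining number need not be related in sequence or function. Many of the genes encode a KRAB domain, which recruits Trim28 (KAP1) and through it the histone methyltransferase Setdb1 and HP1 proteins; in embryonic stem cells this machinery silences endogenous retroviruses. Such genes often lie side by side in rapidly evolving clusters. Id1 binds and neutralises basic helix-loop-helix factors, which recognise E-boxes in DNA, and Zrf1 is a chaperone with a chromatin role at ubiquitylated histone H2A.

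Levels are log2 of the processed signal above the 75th percentile of the same array, so a level of 0 is the brightness of that percentile and 1 unit is a factor of 2. That percentile stood at 554 to 596 units on the Id1KO_Zrf1KD arrays, 393 to 492 on the Id1KO arrays and 441 to 550 on the WT arrays, and its part in the results was not tested. Between 54.8% and 59.3% of spots were well above background on an array. Dnajc2, the hairpin target, was at -0.27 ± 0.08 in Id1KO_Zrf1KD cells and 1.89 ± 0.11 in Id1KO cells (SD, n = 4 each), a log2 fold change of -2.16 (limma, adjusted p = 9.7e-10). The Id1 probe read 1.23 ± 0.31 in Id1KO cells and 0.86 ± 0.20 in WT cells, which does not check the deletion, since the sources used here do not say where it lies relative to the deleted part.

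Many of these genes resemble each other, and the probes show it. The 5 probes below are shown because each is the brightest probe of its gene and shares a run of at least 20 bases with at least 5 other probes of the array, and the pair of Zfp781 probes because they read different parts of the finger repeat and share such a run with none. Capitals mark the finger motif, which codes for the start of a finger, or the linker motif, which codes for the conserved linker. The sequences are given on the transcript strand.

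Zfp930: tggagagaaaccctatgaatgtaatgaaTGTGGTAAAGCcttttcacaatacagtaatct
Zfp931: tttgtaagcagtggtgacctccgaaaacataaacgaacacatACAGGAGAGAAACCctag
Zfp933: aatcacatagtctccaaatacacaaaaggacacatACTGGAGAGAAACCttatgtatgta
Zfp936: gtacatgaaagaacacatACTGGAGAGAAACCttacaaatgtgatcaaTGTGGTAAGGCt
Zfp947: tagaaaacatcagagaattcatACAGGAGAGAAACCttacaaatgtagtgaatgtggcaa
Zfp781, finger: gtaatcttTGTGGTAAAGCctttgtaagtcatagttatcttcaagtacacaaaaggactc
Zfp781, linker: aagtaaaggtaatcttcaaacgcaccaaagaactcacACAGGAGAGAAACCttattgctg

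On mm9, the Zfp930 probe lies at chr8:71752264-71752323 on the plus strand, and the Zfp931 probe at chr2:177802400-177802459 on the minus strand. The Zfp933 probe lies at chr4:147200007-147200066 on the minus strand, the Zfp936 probe at chr7:50445732-50445791 on the plus strand and the Zfp947 probe at chr17:22282838-22282897 on the minus strand. The Zfp781 probes lie at chr10:81366624-81366683 and chr10:81367943-81368002, both on the minus strand. The Zfp936 probe shared a run of 20 bases with 13 other probes, the Zfp947 probe with 11, the Zfp930 probe with 9, the Zfp933 probe with 8 and the Zfp931 probe with 5. One or the other motif, searched on both strands, stood in 13 of the 144 member probes (9.03%) and in 116 of all 55681 probes (0.208%). Signal on the 5 shared probes may therefore come from several transcripts, and their gene names are uncertain.

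The first comparison asked how the genes stood without Id1. In Id1KO cells 57 of the 86 tested members rose relative to WT cells and 9 fell (limma over all 22590 genes, Benjamini-Hochberg adjusted p under 0.05), while 20 did not pass. The members called higher made up 66.3%, against 42.5% of all genes tested, and those called lower 10.5%, against 29.6%. The members' log2 fold changes had a median of 0.41, with 0.15 for all genes and 0.18 for the 221 tested genes named Zfp1 to Zfp699, of which 105 rose and 55 fell. With no filter on dim probes the median of all genes was 0.30 and that of the members 0.42, so the gap shrank to 0.12, against 0.26 with the filter. Past 2-fold the share of members that rose, 13 genes or 15.1%, lay near the background of 12.2%, and 2 genes fell, against a background of 7.46%. The shift was thus made mostly of changes smaller than 2-fold. Of the 86 genes, 84 were well above background on all 12 arrays, so the filter on dim probes entered few of these values; Zfp738 and Zfp879 were the exceptions.

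The second comparison asked what hairpins against Zrf1 added in cells without Id1. In Id1KO_Zrf1KD cells 61 members fell relative to Id1KO cells and 14 rose, while 11 did not pass. The share that fell was 70.9%, against 39.8% of all genes, and the share that rose 16.3%, against 32.3%. The median log2 fold change was -0.44 for the members, -0.09 for all genes and -0.16 for Zfp1 to Zfp699, of which 105 fell and 51 rose. With no filter the members' median minus that of all genes was -0.16, against -0.35 with it. Past 2-fold 21 members fell, 24.4% against a background of 13.2%, and 2 rose, against 7.16%. Both comparisons use the same 4 Id1KO arrays, so their values are given side by side and neither is a check on the other.

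In the comparison of Id1KO_Zrf1KD with WT cells those arrays enter the estimate of the spread but not the fold changes. There 25 members rose (29.1%, against 32.4% of all genes) and 32 fell (37.2%, against 32.2%), and 29 did not pass. The median log2 fold change was -0.05 for members, -0.02 for all genes and -0.12 for Zfp1 to Zfp699. Past 2-fold 5 members rose and 5 fell, against backgrounds of 9.03% and 8.87%.

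Array by array, the median over members of the level minus the gene's WT mean was -0.10, -0.05, -0.01 and -0.09 in Id1KO_Zrf1KD cells. It was 0.43, 0.45, 0.45 and 0.36 in Id1KO cells, against -0.02, -0.02, 0.04 and 0.01 in WT cells. All 4 Id1KO arrays lay above all others. The arrays came from 3 slides that each held all groups, and within slides the members' median minus that of all genes was 0.38, 0.16 and 0.23 in Id1KO against WT cells and -0.36, -0.33 and -0.38 in Id1KO_Zrf1KD against Id1KO cells. On slides 1 and 2, Id1KO and WT cells had a single array each. Between 67 and 71 of the 86 members were above their WT mean on an Id1KO array, between 39 and 42 on an Id1KO_Zrf1KD array and between 35 and 54 on a WT array. The median over all genes tested was itself 0.10 to 0.17 above the WT mean on the Id1KO arrays. No such count was made over all genes.

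**Figure D1:**
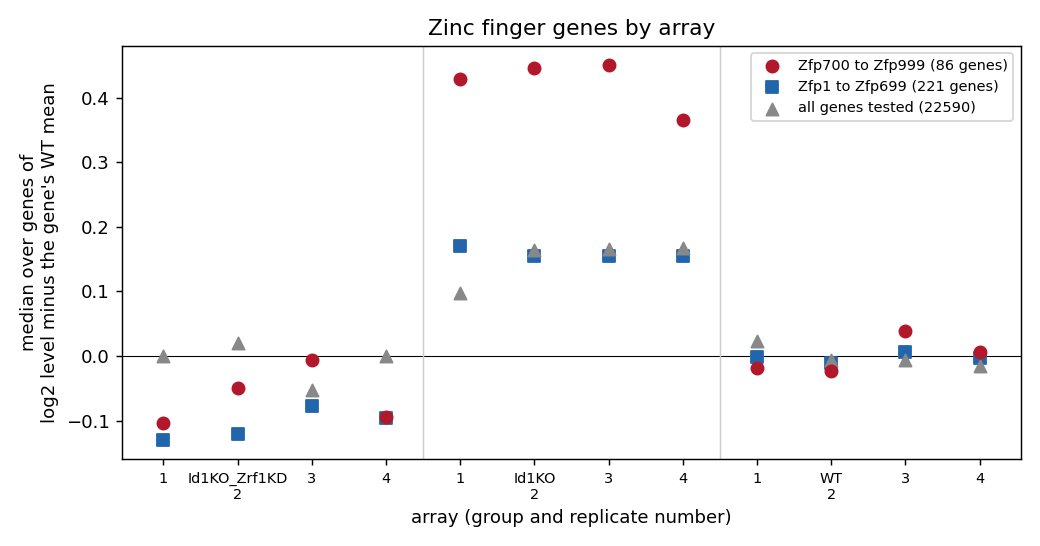
Median over genes of the log2 level minus each gene's WT mean (vertical axis), for each of the 12 arrays (horizontal axis, by group and replicate number), with circles for Zfp700 to Zfp999, squares for Zfp1 to Zfp699 and triangles for all genes tested. The circles of the 4 Id1KO arrays lie between 0.36 and 0.45, above the squares and triangles of the same arrays.

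Among members with known targets, several are silencers of retroviral or repeated DNA. Zfp809 recognises the primer binding site of murine leukaemia virus and starts proviral silencing in embryonic stem cells. Its brightest probe (chr9:22043637-22043696, plus strand) read 1.06, 1.14, 1.25 and 1.16 in Id1KO_Zrf1KD cells, 1.16, 1.23, 1.34 and 1.34 in Id1KO cells, and -0.05, 0.04, -0.20 and -0.01 in WT cells. Both groups without Id1 lay clear of WT and overlapped each other. Its log2 fold change reached 1.33 with an SE of 0.07 (limma, adjusted p = 1.3e-08) in Id1KO against WT cells and -0.12 (adjusted p = 0.13) in Id1KO_Zrf1KD against Id1KO cells. A second Zfp809 probe, placed at chr9:22047517-22047576 and designed on the same transcript record, gave other values. It read -0.13 (adjusted p = 0.097 over the 30879 probes kept) in Id1KO against WT cells and 0.51 in Id1KO_Zrf1KD against Id1KO cells. The knockout difference of Zfp809 therefore rests on 1 of its 2 probes, whereas in Id1KO_Zrf1KD against WT cells both were higher, at 1.21 and 0.38.

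Zfp932, which represses a class of ERVK retroviruses, had levels of 2.05, 2.04, 1.98 and 2.08 in Id1KO_Zrf1KD cells, 3.18, 3.14, 3.16 and 3.20 in Id1KO cells and 1.95, 2.01, 2.04 and 1.94 in WT cells. The Id1KO arrays stood apart from the other 8, which overlapped. It rose by 1.18 in Id1KO against WT cells (SE 0.04, adjusted p = 5.4e-10) and fell by 1.13 in Id1KO_Zrf1KD against Id1KO cells (adjusted p = 1.1e-09). Its other probe read 0.42 and -1.01 in these comparisons, and -0.59 (adjusted p = 0.00046) in Id1KO_Zrf1KD against WT cells, where the brightest probe read 0.05.

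Zfp819, a repressor of repeats found in pluripotent cells, read 1.53, 1.55, 1.52 and 1.56 in Id1KO_Zrf1KD cells, 1.85, 1.90, 2.03 and 1.96 in Id1KO cells and 0.96, 0.98, 1.05 and 1.02 in WT cells. The 3 groups did not overlap. It rose by 0.93 in Id1KO against WT cells (adjusted p = 9.8e-09), and its difference between Id1KO_Zrf1KD and Id1KO cells was -0.40 (adjusted p = 1.1e-05). Its probe holds a finger motif. Zfp708, which binds a retrotransposon class and keeps DNA methylation there, read -2.65, -2.79, -2.57 and -2.44 in Id1KO_Zrf1KD cells, -2.05, -2.07, -1.95 and -2.01 in Id1KO cells and -2.72, -2.67, -2.66 and -2.79 in WT cells. On this brightest Zfp708 probe only the Id1KO arrays stood apart, at 0.69 above WT (adjusted p = 4.4e-06). The other Zfp708 probe read 0.34 in Id1KO against WT cells and did not pass (limma, adjusted p = 0.24 over probes). In Id1KO_Zrf1KD against Id1KO cells the 2 probes read -0.59 and -0.67.

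**Figure D2:**
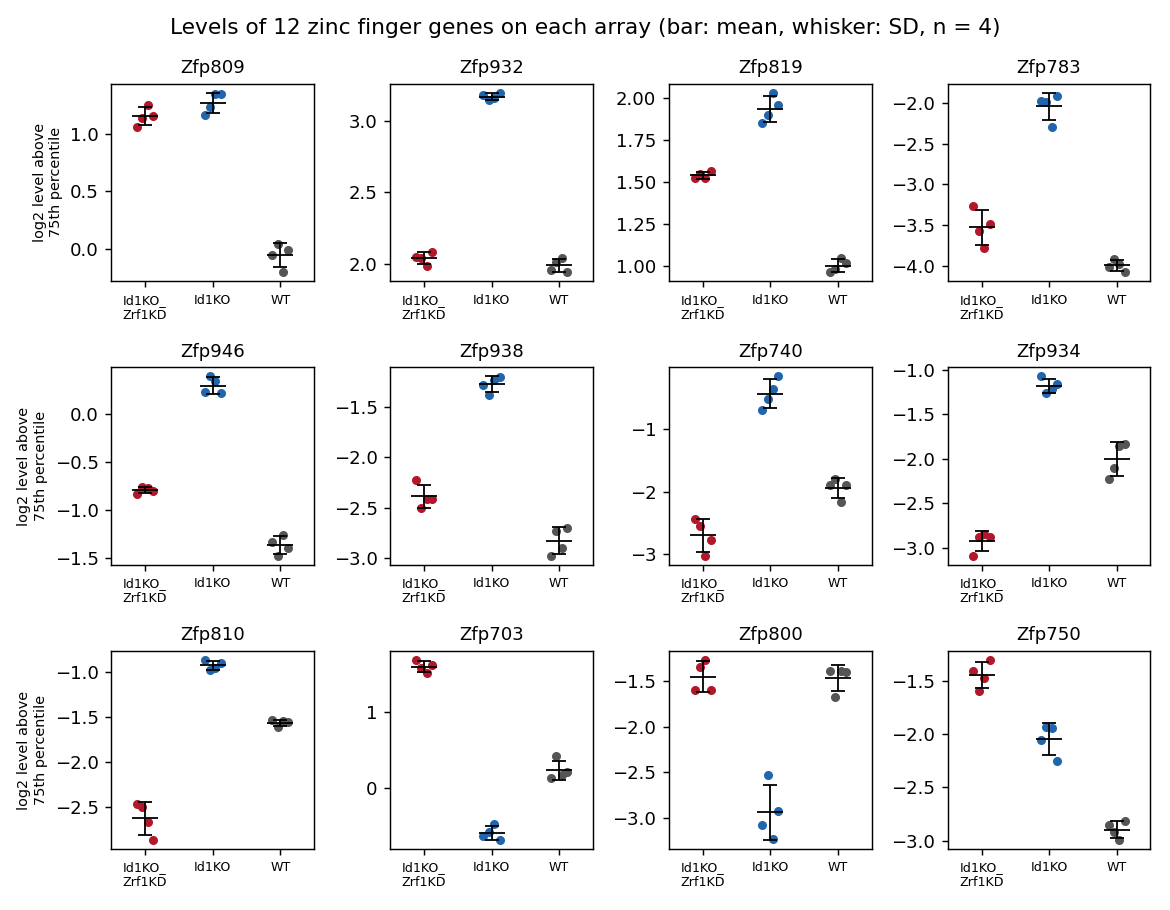
Levels of 12 members (log2 above the array's 75th percentile, vertical axis) on each array of Id1KO_Zrf1KD, Id1KO and WT cells; points are arrays, bars the mean and whiskers the SD (n = 4). Zfp932 and Zfp946 are highest in Id1KO cells, Zfp809 is high in both groups without Id1, and Zfp703 and Zfp800 are lowest in Id1KO cells.

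Of the members with no role given here, Zfp783 on chromosome 6 had the highest fold change of all 86 in Id1KO against WT cells, 3.88-fold. Its levels were -1.97, -1.98, -2.29 and -1.91 in Id1KO cells and -4.01, -3.92, -3.98 and -4.08 in WT cells (adjusted p = 3.3e-08). The probe was well above background on all 4 WT arrays, but its WT signal was dim. The lowest level of any such probe was -5.29 to -4.79 on those arrays. Zfp946 on chromosome 17 read 0.23, 0.40, 0.35 and 0.22 in Id1KO cells and -1.33, -1.48, -1.26 and -1.40 in WT cells, 1.67 on the log2 scale with an SE of 0.06 (limma, adjusted p = 8.4e-10). Zfp938 on chromosome 10 read -1.28, -1.38, -1.23 and -1.21 in Id1KO cells and -2.98, -2.73, -2.90 and -2.70 in WT cells, a log2 fold change of 1.55 (adjusted p = 1.5e-08). In none of the 3 did the groups overlap, but the rule that named them required this. The same holds for the other genes named by size, so a gap between their compared groups is not a result. Zfp740 on chromosome 15 rose by 1.50, Zfp951 on chromosome 5 by 1.33 and Zfp781 on chromosome 10 by 1.28. For Zfp781 the linker probe gave 1.40 and the finger probe 1.28.

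Only 9 members fell in Id1KO cells, and Zfp800 had the lowest value. It read -3.08, -2.54, -3.23 and -2.92 in Id1KO cells and -1.39, -1.67, -1.39 and -1.40 in WT cells, -1.48 on the log2 scale with an SE of 0.14 (limma, adjusted p = 2.8e-06). Its second probe read -1.77. Zfp879 read -4.05, -4.23, -4.21 and -3.34 in Id1KO cells and -2.59, -2.77, -2.84 and -3.10 in WT cells (log2 fold change -1.13, adjusted p = 0.0002), with 3 of its 4 Id1KO arrays well above background. The other 7 were Zfp703, Zfp772, Zfp710, Zfp870, Zfp790, Zfp768 and Zfp820, with log2 fold changes between -0.82 and -0.38. With normexp Zfp870 lost its call, at -0.18 (adjusted p = 0.072) in place of -0.47. The second Zfp790 probe, of nearly the same brightness, read 0.05 (adjusted p = 0.9 over probes) where the first read -0.46. Zfp703 encodes a corepressor of the NLZ family that works with Groucho proteins.

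In Id1KO_Zrf1KD against Id1KO cells Zfp740 had the lowest log2 fold change, -2.26, or 4.80-fold lower (adjusted p = 1.2e-07). Its levels were -2.44, -2.55, -3.02 and -2.77 in Id1KO_Zrf1KD cells, -0.70, -0.51, -0.37 and -0.16 in Id1KO cells and -1.89, -1.79, -2.17 and -1.90 in WT cells. The 3 groups did not overlap, and the Id1KO_Zrf1KD arrays were below WT too. Zfp934 on chromosome 13 read -3.09, -2.88, -2.85 and -2.88 in Id1KO_Zrf1KD cells and -1.08, -1.26, -1.22 and -1.16 in Id1KO cells, a log2 fold change of -1.74 (adjusted p = 2.7e-08). Zfp810 on chromosome 9 read -2.47, -2.49, -2.66 and -2.86 in Id1KO_Zrf1KD cells and -0.87, -0.98, -0.96 and -0.90 in Id1KO cells, a log2 fold change of -1.69 (adjusted p = 8.4e-09). Both genes were also below WT in Id1KO_Zrf1KD cells, by log2 fold changes of -0.92 and -1.06. Of the other genes named by size, Zfp783 was at -1.49, Zfp945 at -1.38, Zfp937 at -1.36, Zfp760 at -1.33 and Zfp764 at -1.28 against Id1KO cells. Zfp945, Zfp937, Zfp760 and Zfp764 fell below WT in Id1KO_Zrf1KD cells as well, with log2 fold changes of -0.69, -0.87, -0.41 and -0.52, whereas Zfp783 was 0.47 above WT (adjusted p = 0.0029), a call lost with normexp background correction (0.17, adjusted p = 0.067).

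Past 2-fold, 2 members rose in Id1KO_Zrf1KD against Id1KO cells, and both were among the 9 that were lower in Id1KO than in WT cells. Zfp703 read 1.68, 1.58, 1.50 and 1.61 in Id1KO_Zrf1KD cells, -0.63, -0.57, -0.47 and -0.67 in Id1KO cells and 0.13, 0.42, 0.18 and 0.21 in WT cells. The 3 groups were separate, with Id1KO_Zrf1KD cells highest, 2.18 above Id1KO cells (SE 0.07, adjusted p = 6.9e-10) and 1.36 above WT cells (adjusted p = 2.1e-08). Zfp800 read -1.60, -1.34, -1.27 and -1.60 in Id1KO_Zrf1KD cells, 1.49 above Id1KO cells (adjusted p = 2.9e-06). Against WT cells Zfp800 differed by 0.01 (SE 0.14, adjusted p = 0.96), within the spread of the arrays.

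Against WT cells, Zfp750 had the highest log2 fold change in Id1KO_Zrf1KD cells, 1.45 (adjusted p = 4.7e-08). Human ZNF750 drives epidermal differentiation. Zfp750 read -1.41, -1.60, -1.48 and -1.31 in Id1KO_Zrf1KD cells, -2.06, -1.93, -1.94 and -2.25 in Id1KO cells and -2.86, -2.92, -2.99 and -2.81 in WT cells, so each group stood apart from the next. Zfp959 on chromosome 17 read -0.28, -0.24, -0.21 and -0.09 in Id1KO_Zrf1KD cells and -1.59, -1.65, -1.66 and -1.59 in WT cells (log2 fold change 1.42, adjusted p = 1.6e-09), and Id1KO cells stood 1.10 above WT. Zfp869 on chromosome 8 rose by 1.09 and Zfp809 by 1.21. With Zfp703, these were the 5 members that rose at least 2-fold.

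The 5 that fell at least 2-fold against WT were Zfp870, Zfp879, Zfp940, Zfp810 and Zfp773. Zfp870 on chromosome 17 read -3.61, -3.58, -3.68 and -3.72 in Id1KO_Zrf1KD cells, -2.68, -2.93, -2.40 and -2.55 in Id1KO cells and -2.14, -2.05, -2.40 and -2.09 in WT cells (Id1KO_Zrf1KD against WT -1.47, adjusted p = 3.8e-07). Its Id1KO_Zrf1KD arrays were below all others. Zfp940 and Zfp773, both on chromosome 7, had log2 fold changes of -1.24 and -1.02 against WT, and did not pass in Id1KO against WT cells (-0.04, adjusted p = 0.84, and 0.04, adjusted p = 0.7). Zfp879 stood at -1.41 against WT in Id1KO_Zrf1KD cells, and its difference from Id1KO cells was -0.28 (adjusted p = 0.19).

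Some members have other known roles. Zfp706, which represses Klf4 and helps cells leave self-renewal, read 4.11, 4.09, 4.17 and 4.11 in Id1KO_Zrf1KD cells, 3.66, 3.64, 3.59 and 3.62 in Id1KO cells and 3.47, 3.44, 3.46 and 3.50 in WT cells. The groups did not overlap, with differences of 0.49 (adjusted p = 3e-07) and 0.16 (adjusted p = 0.002) between neighbours. The second of these calls, Id1KO against WT, was lost with normexp (0.10, adjusted p = 0.092) and in the deposited values (0.06, adjusted p = 0.23), and the other Zfp706 probe read 0.10 (adjusted p = 0.15 over probes). Zfp830, a splicing-associated protein also called Omcg1, stood 0.37 higher in Id1KO_Zrf1KD than in Id1KO cells (adjusted p = 0.00041) and 0.25 higher in Id1KO than in WT cells (adjusted p = 0.0062). Zfp746, known as PARIS and a repressor of Ppargc1a, read 0.23, 0.09, 0.14 and 0.16 in Id1KO_Zrf1KD cells, 0.54, 0.51, 0.56 and 0.48 in Id1KO cells and 0.55, 0.57, 0.48 and 0.48 in WT cells. Its Id1KO and WT arrays overlapped, and its Id1KO_Zrf1KD arrays lay below both (-0.36 against each, adjusted p = 1.5e-05 and 1.8e-05). X-linked Zfp711, whose human counterpart works with the histone demethylase PHF8, did not pass in any of the 3 comparisons; its WT arrays ran between -4.03 and -3.03. Without WT replicate 3 it passed in Id1KO against WT cells (0.43, adjusted p = 0.036) and in Id1KO_Zrf1KD against WT cells (0.55, adjusted p = 0.012).

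The 5 members with the highest signal were Zfp947, Zfp710, Zfp930, Zfp961 and Zfp958. Zfp947 and Zfp930 are among the genes with shared probe sequence printed above. Zfp947 read 5.78, 5.77, 6.13 and 5.79 in Id1KO_Zrf1KD cells, 6.74, 6.95, 6.60 and 6.73 in Id1KO cells and 5.69, 5.80, 5.95 and 6.10 in WT cells, with the Id1KO arrays apart (0.87 above WT, adjusted p = 3.1e-05). Its other probe, which shares no such run, read 0.17 (adjusted p = 0.019 over probes). Zfp930 read 3.92, 3.92, 4.25 and 3.99 in Id1KO_Zrf1KD cells, 4.70, 4.83, 4.43 and 4.55 in Id1KO cells and 4.05, 4.36, 4.39 and 4.61 in WT cells. Its WT arrays overlapped both other groups, and the Id1KO_Zrf1KD arrays lay below the Id1KO arrays (-0.61, adjusted p = 0.0012). In Id1KO against WT cells this probe read 0.27 and did not pass, while a dimmer Zfp930 probe read 0.66 (limma, adjusted p = 7.7e-05 over probes). The dimmer probe read -0.99 in Id1KO_Zrf1KD against Id1KO cells. Zfp710 was lower in Id1KO than in WT cells (-0.62, adjusted p = 5.1e-07) and higher in Id1KO_Zrf1KD than in Id1KO cells (0.28, adjusted p = 0.0003). Zfp958 and Zfp961 were at -0.64 and -0.30 in Id1KO_Zrf1KD against Id1KO cells, and in Id1KO against WT cells at 0.40 (adjusted p = 7.8e-06) and -0.10 (adjusted p = 0.082). Zfp961 was called lower in Id1KO than in WT cells with quantile normalization (-0.20, adjusted p = 0.0061), with normexp (-0.14, adjusted p = 0.037) and in the deposited values (-0.20, adjusted p = 0.0089).

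The tested members lay on 16 chromosomes. On chromosome 17, with 17 members, 12 rose and 2 fell in Id1KO against WT cells, and 13 fell and 2 rose in Id1KO_Zrf1KD against Id1KO cells, with medians of 0.49 and -0.70. Chromosome 7, also with 17 members, held 9 that rose and 4 that fell in Id1KO against WT cells (median 0.37), and 13 that fell and 2 that rose in Id1KO_Zrf1KD against Id1KO cells (median -0.40). On chromosome 8, 8 of 12 members rose and 1 fell in Id1KO against WT cells, and 8 fell and 4 rose in Id1KO_Zrf1KD against Id1KO cells. On chromosome 13, 6 of 9 rose and 7 of 9 fell in these comparisons, and no member there was called the opposite way. On chromosome 6, with 6 members, 3 rose and 1 fell, and then 4 fell and 2 rose. For all genes tested the chromosome medians in Id1KO against WT cells were 0.15 on chromosome 17, 0.09 on chromosome 7, 0.05 on chromosome 8, 0.31 on chromosome 13 and 0.15 on chromosome 6. The members' medians on chromosomes 13 and 6, 0.32 and 0.13, lay near these. In Id1KO_Zrf1KD against Id1KO cells the medians over all genes were -0.13, -0.11, -0.12, -0.21 and -0.04, in the same order of chromosomes. Members on chromosomes 8, 13 and 6 had medians of -0.34, -0.59 and -0.50 there. Over all chromosomes, 42.5% of genes rose and 29.6% fell in the first comparison, and 39.8% fell and 32.3% rose in the second. Shares of all genes called were not computed by chromosome.

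**Figure D3:**
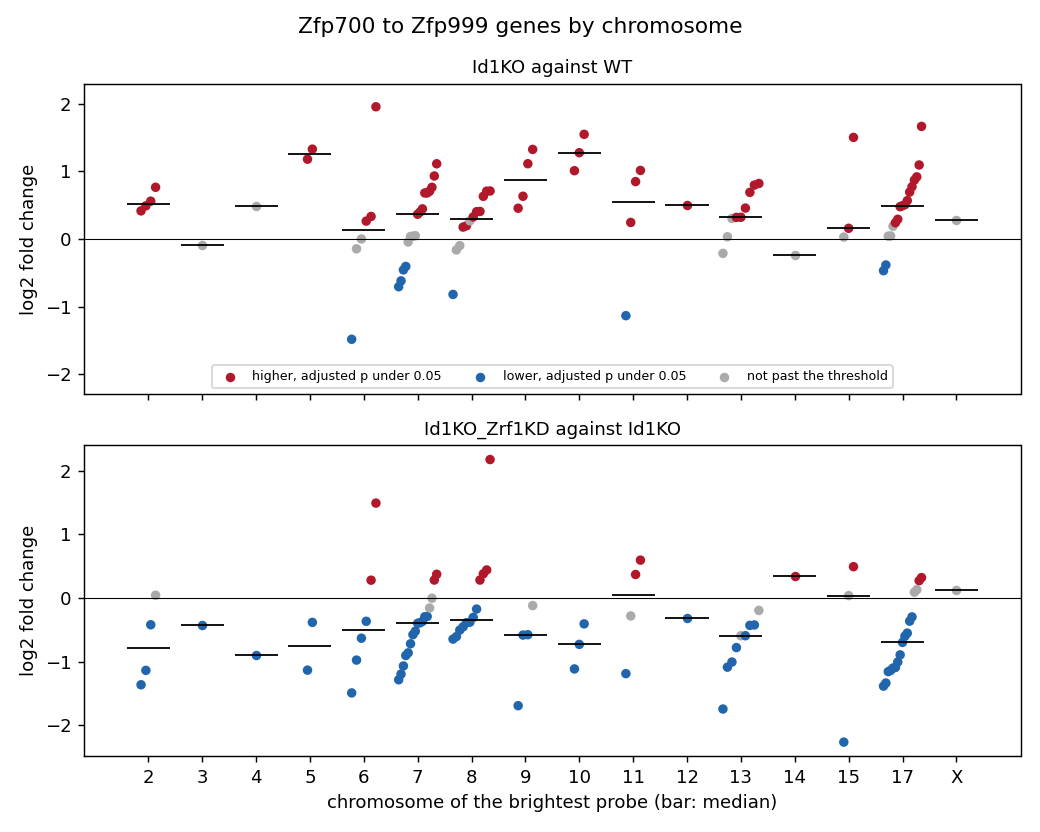
Log2 fold change of each of the 86 tested members (vertical axis) by chromosome (horizontal axis), above for Id1KO against WT and below for Id1KO_Zrf1KD against Id1KO cells; red and blue points passed an adjusted p under 0.05, grey points did not, and bars are chromosome medians. Members on chromosomes 2, 5, 9 and 10 all lie above 0 in the upper panel, and Zfp703 on chromosome 8 is the highest point of the lower panel.

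Members no more than 1 Mb from the next, in runs of at least 3, formed 10 clusters holding 47 of the 86 genes. In clusters 34 members rose and 4 fell in Id1KO against WT cells (median 0.46), against 23 and 5 of the other 39 (median 0.40). In Id1KO_Zrf1KD against Id1KO cells 38 clustered members fell and 3 rose (median -0.59), against 23 and 11 outside (median -0.32). The largest run, on chromosome 17 between 21725548 and 22984542 (mm9), held Zfp948, Zfp760, Zfp820, Zfp943, Zfp947, Zfp944, Zfp758, Zfp946 and Zfp945. Of these 9, 7 rose and Zfp820 fell in Id1KO against WT cells, and 7 fell and none rose in Id1KO_Zrf1KD against Id1KO cells. The 33 other features measured in the same window had medians of 0.48 and -0.72, close to the members' 0.69 and -0.70.

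In the chromosome 10 run of Zfp781, Zfp873 and Zfp938, all 3 rose in Id1KO against WT cells, between 1.01 and 1.55, and all 3 fell in Id1KO_Zrf1KD against Id1KO cells. The 7 other features there also all rose and then all fell, and many of them carry only a position or a transcript identifier as a name. Over all 10 windows the 115 other features had medians of 0.40 in Id1KO against WT cells, where 60 rose and 12 fell, and -0.64 in Id1KO_Zrf1KD against Id1KO cells, where 75 fell and 9 rose. Of all genes tested, 42.5% rose and 29.6% fell in the first comparison, and 39.8% fell and 32.3% rose in the second. Some of the features lie so close together, or so close to a member, that they may read the same transcript. The 115 features are therefore not as many separate genes. These features include further zinc finger genes such as Zfp455, Zfp458 and Zfp229. Run by run, the other features were not always near the members. The second run of chromosome 17 held Zfp871, Zfp811, Zfp799, Zfp870, Zfp952 and Zfp763. Its 5 other features, which include Cyp4f genes, had a median of -0.53 in Id1KO against WT cells, against 0.27 for its members. In the chromosome 7 run of Zfp936, Zfp715, Zfp719 and Zfp819, 15 other features had a median of 0.17 in that comparison, against 0.81. In the chromosome 8 run the other features lay above the members, at 0.84 against 0.33. In the chromosome 6 run they were at -0.15 in Id1KO_Zrf1KD against Id1KO cells, against -0.63 for the members.

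**Figure D4:**
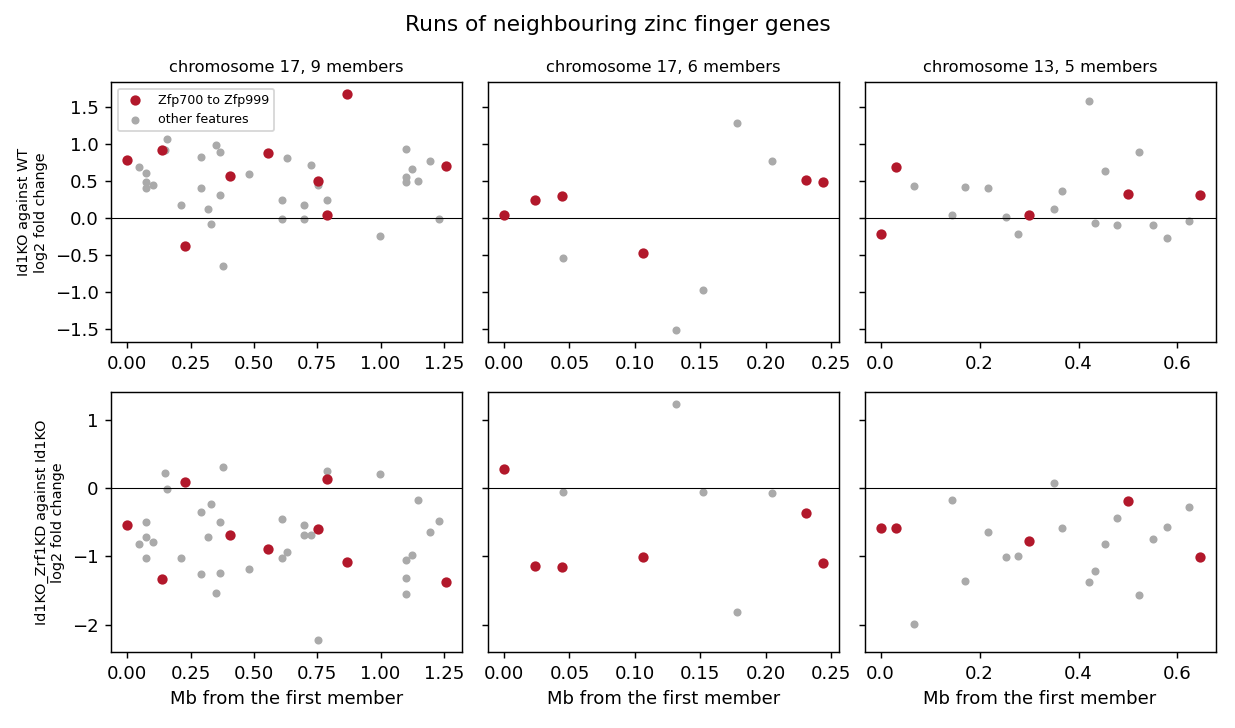
Log2 fold changes (vertical axes) of members (red) and other features (grey) against the distance in Mb from the first member, for the 3 runs with most members, the longer one first where sizes tie; the upper row is Id1KO against WT and the lower row Id1KO_Zrf1KD against Id1KO. In the 9-member run of chromosome 17 red and grey points cover a similar range.

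Several probes above background were available for 34 genes, giving 41 pairs of the brightest probe with another. The signs matched in 34 of the 41 pairs for Id1KO against WT, in 35 for Id1KO_Zrf1KD against Id1KO and in 29 for Id1KO_Zrf1KD against WT. Pairs that passed in opposite directions occurred in the last comparison, for 2 genes. Zfp866 read -0.21 on its brightest probe and 0.46 on another in Id1KO_Zrf1KD against WT cells, and Zfp949 read 0.53 and -0.43. The annotation puts the brightest Zfp787 probe on chromosome 2 and its other probes on chromosome 7. They gave -0.42 for the chromosome 2 probe and 0.07 and 0.14 for the others in Id1KO_Zrf1KD against Id1KO cells, so Zfp787 is an uncertain assignment.

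**Figure D5:**
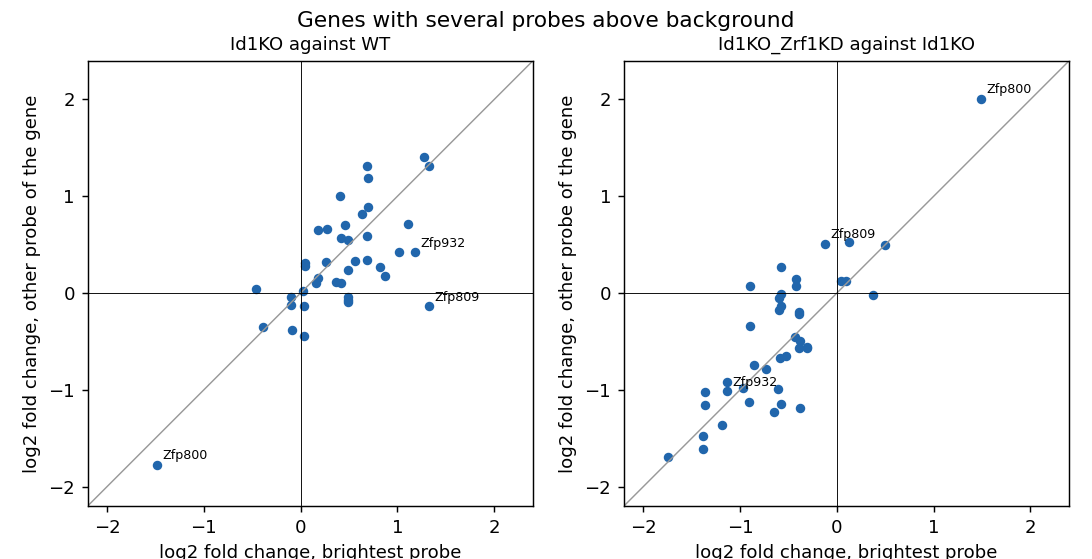
Log2 fold change of another probe of the gene (vertical axis) against that of its brightest probe (horizontal axis) for 41 pairs in 34 genes, left for Id1KO against WT and right for Id1KO_Zrf1KD against Id1KO; the grey line marks equal values. Zfp809 lies near 0 on the vertical axis at left, with 1.33 on one probe and -0.13 on the other, while both Zfp800 probes lie near the line.

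Leaving out the 13 genes whose brightest probe held a motif or shared 20 bases with another probe, a step added after the data had been seen, left 73 genes. Of these 49 rose and 7 fell in Id1KO against WT cells, 52 fell and 13 rose in Id1KO_Zrf1KD against Id1KO cells, and 21 rose and 29 fell in Id1KO_Zrf1KD against WT cells. The 13 genes alone gave 8 and 2, 9 and 1, and 4 and 3 in the same order.

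Promoters are shown for 4 of the genes that rose in Id1KO cells and for Zfp800, which fell, because Id1 acts on factors that bind E-boxes. RefSeq windows of 300 bases, from 250 before to 50 after the start (build GRCm38.p6), were found for 80 of the 95 members, 93 of which had a matching accession. Capitals mark the E-boxes searched for: CACCTG, which reads CAGGTG on the other strand, and the palindromes CAGCTG and CACGTG.

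Zfp783: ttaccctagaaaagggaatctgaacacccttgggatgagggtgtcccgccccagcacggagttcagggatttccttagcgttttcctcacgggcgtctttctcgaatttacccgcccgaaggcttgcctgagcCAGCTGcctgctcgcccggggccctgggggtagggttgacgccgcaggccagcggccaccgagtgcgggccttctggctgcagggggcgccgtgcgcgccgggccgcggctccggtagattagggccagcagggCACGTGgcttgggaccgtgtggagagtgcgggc
Zfp819: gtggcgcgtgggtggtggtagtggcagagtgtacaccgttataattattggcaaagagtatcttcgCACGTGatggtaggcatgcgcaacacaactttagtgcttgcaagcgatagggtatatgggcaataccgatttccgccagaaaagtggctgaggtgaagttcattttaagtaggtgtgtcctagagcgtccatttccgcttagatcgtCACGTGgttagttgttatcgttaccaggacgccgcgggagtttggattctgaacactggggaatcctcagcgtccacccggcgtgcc
Zfp800: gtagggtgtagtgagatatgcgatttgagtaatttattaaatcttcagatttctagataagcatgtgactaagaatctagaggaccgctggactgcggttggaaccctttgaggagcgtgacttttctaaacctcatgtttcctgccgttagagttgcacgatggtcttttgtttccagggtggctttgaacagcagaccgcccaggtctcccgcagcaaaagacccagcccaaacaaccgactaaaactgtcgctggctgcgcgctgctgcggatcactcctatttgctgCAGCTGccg
Zfp809: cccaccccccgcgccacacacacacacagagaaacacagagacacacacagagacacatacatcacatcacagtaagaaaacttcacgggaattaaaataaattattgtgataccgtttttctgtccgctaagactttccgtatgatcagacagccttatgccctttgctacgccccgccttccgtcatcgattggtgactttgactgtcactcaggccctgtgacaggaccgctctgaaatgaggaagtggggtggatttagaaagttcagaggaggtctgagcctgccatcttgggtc
Zfp932: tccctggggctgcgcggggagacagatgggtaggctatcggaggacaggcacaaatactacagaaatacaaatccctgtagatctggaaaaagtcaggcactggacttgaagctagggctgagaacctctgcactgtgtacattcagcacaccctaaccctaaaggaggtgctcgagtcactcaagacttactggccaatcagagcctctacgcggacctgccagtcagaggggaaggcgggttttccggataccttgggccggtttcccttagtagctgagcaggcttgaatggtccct

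These windows are chr6:47942925-47943224 for Zfp783, chr6:28397956-28398255 for Zfp800, chr7:43606919-43607218 for Zfp819, chr9:22225453-22225752 for Zfp809 and chr5:109996260-109996559 for Zfp932, with Zfp800 on the minus strand and the others on the plus strand. Of the 4 genes that rose in Id1KO against WT cells, the Zfp783 and Zfp819 windows hold these letters and the Zfp809 and Zfp932 windows do not, and the window of Zfp800, which fell, holds CAGCTG as well. The letters CACGTG stood in 13 of the 80 member promoters (16.2%) and in 7.24% of all 27018 promoters, while CACCTG stood in 17.5% against 20% and CAGCTG in 18.8% against 16.1%. Any of the 3 stood in 42.5% of member promoters and 37.3% of all. Of 30 tested members with any of them, 19 rose and 3 fell in Id1KO against WT cells, and of 43 without, 33 rose and 4 fell; the medians were 0.41 and 0.46. In Id1KO_Zrf1KD against Id1KO cells the medians were -0.49 with and -0.50 without. For CACGTG alone, 8 of 13 members with it rose and 1 fell in Id1KO against WT cells, and 44 of 60 without it rose and 6 fell, with medians of 0.57 and 0.43. In Id1KO_Zrf1KD against Id1KO cells the medians were -0.59 with CACGTG and -0.44 without. These differences were not tested, nor was it examined which of the 3 forms are bound by the factors that Id1 neutralises. A match in the window is a description of its letters and not evidence of binding.

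The partners of KRAB zinc finger proteins were followed as a list of 25 genes, all tested. In Id1KO against WT cells 8 rose and 10 fell, with a median of -0.06 (0.15 for all genes), and in Id1KO_Zrf1KD against Id1KO cells 12 rose and 3 fell, with a median of 0.15 (-0.09 for all genes). The shares over all genes tested were 42.5% up and 29.6% down in the first comparison. They were 32.3% up and 39.8% down in the second. Trim28, the KRAB corepressor, averaged 6.43 in Id1KO_Zrf1KD cells, 5.83 in Id1KO cells and 5.51 in WT cells. Cbx1, an HP1 protein, read 1.48 in Id1KO against WT cells and -2.19 in Id1KO_Zrf1KD against Id1KO cells. The other HP1 genes of the list had smaller differences: Cbx3 read 0.16 and 0.23, and Cbx5 0.10 and -0.01 in these comparisons (adjusted p = 0.04, 0.0074, 0.19 and 0.94). Setdb1 read -0.29 in Id1KO against WT cells and 0.33 in Id1KO_Zrf1KD against Id1KO cells. In the same order, the other histone methyltransferase genes read -0.73 and -0.17 (Suv39h1), -0.22 and 0.68 (Suv39h2), -0.07 and 0.23 (Ehmt1) and -0.14 and 0.17 (Ehmt2). Further genes of the list with small adjusted p in 1 or both comparisons were Hdac1 (0.86 and -0.02) and Uhrf1 (-0.49 and 0.47). Others were Chd3 (-0.32 and 0.57), Chd4 (-0.39 and 0.56) and Atf7ip (-0.06 and 0.61).

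Marker genes of other cell types also differed between the groups. All 10 fibroblast or feeder markers were higher in Id1KO_Zrf1KD than in Id1KO cells, with summed linear levels of 106.6 to 113 in Id1KO_Zrf1KD cells, 19.8 to 21.5 in Id1KO cells and 33.2 to 35.9 in WT cells. All 10 markers of parietal or primitive endoderm were higher too, with sums of 387 to 400 in Id1KO_Zrf1KD cells, 120 to 127 in Id1KO cells and 216 to 230 in WT cells. Sparc was the brightest gene in these sums. In Id1KO against WT cells 3 endoderm markers rose, Dab2 by 2.34, Sox7 by 1.32 and Foxa2 by 0.99, and 5 fell (median -0.07). Those 5 were Lama1 at -0.94, Sparc at -0.93, Gata4 and Col4a1 at -0.91 each and Lamb1 at -0.14. Of the fibroblast markers 1 rose and 7 fell (median -1.08). In Id1KO_Zrf1KD against WT cells all 10 endoderm markers rose, and 8 fibroblast markers rose and 1 fell, while 25 zinc finger members rose and 32 fell. Each marker of either list was well above background on at least 1 array of every group. Postn was so on only 1 of the 4 Id1KO arrays (mean -4.55, SD 0.76), so its fold changes against Id1KO cells start near background. All 10 embryonic stem cell markers, Pou5f1 and Nanog among them, were above background in every group. Their sums were 960 to 974 in Id1KO_Zrf1KD cells, 1188 to 1317 in Id1KO cells and 1167 to 1328 in WT cells, and the brightest probe in them was that of Dppa5a. Gene by gene, 6 of the 10 stem cell markers fell and 3 rose in Id1KO against WT cells, with a median of -0.48 and values of -1.39 for Klf4, -1.02 for Zfp42 and -1.01 for Nanog. In Id1KO_Zrf1KD against WT cells 7 fell and 1 rose, and in Id1KO_Zrf1KD against Id1KO cells 4 fell and 5 rose. Over all genes tested, 42.5% rose and 29.6% fell in Id1KO against WT cells. The shares were 32.3% and 39.8% in Id1KO_Zrf1KD against Id1KO cells, and 32.4% and 32.2% in Id1KO_Zrf1KD against WT cells. Whether these marker levels have a part in the zinc finger differences was not tested, and in bulk RNA fewer cells of a type and less RNA per cell cannot be told apart.

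The 9 members not tested were Zfp709, Zfp735, Zfp759, Zfp775, Zfp788, Zfp827, Zfp831, Zfp853 and Zfp872. None was well above background on all 4 arrays of any group, so no fold change is given for them. They include Zfp827, whose human counterpart recruits chromatin remodellers to telomeres. Zfp828, one of the tested members, is now named Champ1, a gene for chromosome alignment at mitosis, and stood 0.41 higher in Id1KO than in WT cells and 0.44 higher in Id1KO_Zrf1KD than in Id1KO cells.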

How the data were processed

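Total RNA labelled with Cy3 was hybridised to one-colour Agilent arrays with 60-base probes. Per the file headers, the authors' scanner files hold spot intensities made with Agilent Feature Extraction 10.7.3.1, background subtracted but not normalized between arrays, with probe positions on mm9. The authors also deposited a table of log2 values, whose background correction and normalization are not stated; every column has a median of 6.55, and it was used as an alternative. Here log2 of the processed signal minus the array's 75th percentile over 59305 non-control spots was computed, and spots of a probe were averaged without outlier spots. A probe was kept if at least 50% of its spots were well above background on all 4 arrays of a group (30879 probes), and the brightest probe stood for its gene. All 12 arrays went into a single fit with limma 3.58.1 (R 4.3.3), two-sided, with Benjamini-Hochberg adjustment over 22590 genes and a threshold of 0.05. On simulated data for Id1KO against WT (22375 genes), 83% of 100 changes of 1 log2 unit and 94% of 100 changes of 2 units were recovered. In that run 12 unchanged genes were called. Far more genes were called in the real data, where the adjusted threshold is less strict, so these shares do not give the recovery there. The number of arrays limits precision. The members, gene lists and tests were chosen with earlier results of these data known. Genes were named by a rule: for each comparison up to 8 highest and 8 lowest among those past the threshold, at least 2-fold and not overlapping, plus the 5 brightest and a list with known roles (Zfp804a on it is outside the name rule); Zfp738, Zfp828 and the remaining lower genes were named after their values were seen. Alternatives were quantile and normexp (offset 50) normalization, the deposited table, no filter, slide and replicate blocks, single slides, other probe choices and leaving out each array. Arrays of the same replicate number did not deviate together (median correlation -0.20, with 1 of 12 arrays closest to its own number), so numbers were not taken as pairs. Arrays of different groups on the same slide had a median correlation of 0.24, and slide entered the fit only as an alternative.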

Additional observations from a re-analysis of the deposited data

Results flagged for a closer look

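In 6 of 102 sets of 4 arrays checked over the 34 named genes, 1 array stood far from the other 3, judged by its gap to the nearest as a share of the whole range; chance gives about 1 in 20 such sets. Zfp773 read -2.94 on the array of Id1KO_Zrf1KD replicate 3 and -3.22 to -3.20 on the others (share 0.936). Zfp947 read 6.13 on that same array, against 5.77 to 5.79 (share 0.953). Zfp934 read -3.09 on Id1KO_Zrf1KD replicate 1, against -2.88 to -2.85 (share 0.855). Zfp869 read 0.80 on Id1KO replicate 2, against 0.71 to 0.73 (share 0.833), and 0.24 on WT replicate 3, against -0.05 to -0.02 (share 0.908). Zfp800 read -1.67 on WT replicate 2, against -1.40 to -1.39 (share 0.967).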

How the results depend on the processing

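The counts of members that rose or fell stayed within 1.5 times under every alternative run. In Id1KO against WT cells 48 to 59 rose and 8 to 12 fell, and in Id1KO_Zrf1KD against Id1KO cells 53 to 62 fell and 13 to 15 rose, leaving out single arrays and shared probes apart. With 1 array left out the counts were 53 to 57 and 9 to 11 (Id1KO against WT), 12 to 14 and 59 to 63 (Id1KO_Zrf1KD against Id1KO), and 23 to 25 and 29 to 33 (Id1KO_Zrf1KD against WT), each higher then lower. With the replicate block they were 55 and 9, 13 and 59, and 23 and 32, which changed no direction. Taking the dimmest kept probe, an alternative added after seeing the data, gave 49 and 8, 15 and 54, and 24 and 34.

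How far the members' median lay from the median over all genes depended more on processing, and the cause was not tested. In Id1KO against WT cells it was 0.26, and 0.19 with normexp, 0.12 with no filter, 0.38 within slide 1 and 0.16 within slide 2 (0.24 to 0.29 with 1 array left out). In Id1KO_Zrf1KD against Id1KO cells it was -0.35, and -0.42 with quantile normalization, -0.25 with normexp and -0.16 with no filter (-0.39 to -0.33 with 1 array left out). In Id1KO_Zrf1KD against WT cells it was -0.03, and turned to 0.0301 with no filter and 0.0294 within slide 1 (-0.108 to -0.0229 with 1 array left out, lowest without Id1KO_Zrf1KD replicate 3). Quantile normalization moved the median of all genes in Id1KO against WT cells to 0.02, with 0.15 before.

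Over the 34 named genes, 88 of 102 values passed the threshold, and the alternatives left 2216 results alike, 12 weaker and 14 stronger. Averaging all probes turned Zfp809 to 0.20 in Id1KO_Zrf1KD against Id1KO cells and Zfp932 to -0.27 in Id1KO_Zrf1KD against WT cells, since their probes differ. Zfp930 in Id1KO_Zrf1KD against WT cells (-0.33, adjusted p = 0.037) lost its call with no filter and with the replicate block (adjusted p = 0.066 each), and without WT replicates 2, 3 or 4 or Id1KO_Zrf1KD replicates 1, 2 or 4, at -0.33 to -0.25. Calls were also gained by Zfp711 in Id1KO against WT cells with normexp (adjusted p = 0.015) and in Id1KO_Zrf1KD against WT cells with the slide block (adjusted p = 0.03), by Zfp809 (-0.18 with quantile normalization) and Zfp879 (-0.29 with normexp) in Id1KO_Zrf1KD against Id1KO cells, by Zfp708 in Id1KO_Zrf1KD against WT cells (0.16 without Id1KO_Zrf1KD replicate 2), and by Zfp930 in Id1KO against WT cells under 4 alternatives. Signal near background limits the 9 members not tested.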

Other observations

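Zfp775, 1 of the 9 members too dim to test, read 0.09 on the array of Id1KO_Zrf1KD replicate 3, where its probe was well above background, and -7.01 to -5.51 on the other 3 arrays of that group. Its levels were -6.10 to -4.76 in Id1KO cells and -5.65 to -4.60 in WT cells. Zfp827, whose 2 probes were also too dim, read -6.97 to -6.41 in Id1KO_Zrf1KD cells on one probe, -5.18 to -4.75 in Id1KO cells and -7.15 to -6.41 in WT cells. That probe was well above background on no array. The other probe was so on 1 Id1KO array and on no array of the other groups.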
